A study of Mus musculus with 12 samples.

Results

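The Lin28 and let-7 timing genes are RNA-binding and chromatin genes that mark early progenitor stages, and 8 of the 45706 genes in the count table were taken by symbol as *Lin28a*, *Lin28b*, *Trim71*, *Igf2bp1*, *Igf2bp2*, *Igf2bp3*, *Hmga1* and *Hmga2*. Bulk RNA-seq libraries were made from 4 groups of cultured mouse cells, 3 per group, all derived from C57BL/6 embryonic stem cells (ESCs) in which one *Sox1* allele carries an in-frame GFP. NPC were glial progenitors labelled Baseline and, in the labels, *Sox1* negative and not sorted; the study's text instead describes sorting before NPC with and without *Sox1* GFP were compared, and the sources used here do not settle which holds for these libraries. NPC(+) were glial progenitors labelled Sox1posGP, in which the activator dCas9-VP64 had been directed to the *Sox1* promoter by guide RNAs and cells were sorted for GFP. Only a minority of cells respond to the activator, so the sorted cells are a selected part of the culture. The NSC libraries came from unsorted neuroepithelial cells, and the NR libraries from neural rosettes sorted for GFP. The dCas9-VP64 lines were clonal, the replicates were made on different days, and the study states that biological replicates used different clonal lines. Which line gave which NPC or NPC(+) library is not stated in the sources used here.

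let-7 is a family of microRNAs that becomes abundant as tissues mature and represses messenger RNAs carrying matches to its seed. Lin28a and Lin28b bind the let-7 precursor and block its maturation, and both are themselves let-7 targets, so the pair and the microRNA form a double-negative switch. Trim71, Igf2bp1 to Igf2bp3 and the Hmga proteins are further let-7 targets that are high in embryonic neural stem cells and decline with age, a decline that accompanies the change from neuron to glia production.

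Because the switch works through the seed, the mature sequences of 4 family members are shown, with bases 2 to 8 in capitals. They are RefSeq sequences on GRCm38.p6, 5′ to 3′, from chr13:48538239-48538260 (let-7a-1, minus strand), chr15:85707325-85707346 (let-7b, plus strand), chr15:85706616-85706637 (let-7c-2, plus strand) and chr10:122985698-122985719 (let-7i, minus strand).
let-7a-5p: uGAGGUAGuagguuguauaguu
let-7b-5p: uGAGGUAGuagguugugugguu
let-7c-5p: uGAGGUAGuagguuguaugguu
let-7i-5p: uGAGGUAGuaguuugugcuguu
The RefSeq set used held 13 let-7 and miR-98 loci with a mature sequence and did not include let-7a-2. Of these, 12 shared the seed GAGGUAG and encode 10 distinct mature sequences. The remaining locus, let-7j, reads GAGGUAU in the same positions.

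The match to this seed is CTACCTC, or CTACCTCA with the A that lies opposite the first base of the microRNA; every 8-letter match is also a 7-letter match. Both were searched on the sense strand of the longest annotated 3′ UTR of each gene (GENCODE M21, GRCm38). For each of the 8 genes the first 8-letter match is shown with the bases before it, or for *Hmga1*, which holds no 8-letter match, its only 7-letter match. Capitals mark the matched letters.
*Lin28a*: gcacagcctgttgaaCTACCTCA
*Lin28b*: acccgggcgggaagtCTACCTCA
*Trim71*: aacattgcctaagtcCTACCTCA
*Igf2bp1*: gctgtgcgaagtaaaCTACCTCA
*Igf2bp2*: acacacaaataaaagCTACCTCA
*Igf2bp3*: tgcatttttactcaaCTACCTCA
*Hmga1*: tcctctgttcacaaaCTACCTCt
*Hmga2*: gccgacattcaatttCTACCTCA
These runs lie at chr4:134005189-134005211, chr10:45381022-45381044, chr9:114512472-114512494, chr11:95961778-95961800, chr16:22059473-22059495, chr6:49086787-49086809, chr17:27563277-27563299 and chr10:120364224-120364246, in the order given, on the plus strand for *Hmga1* and on the minus strand for the others.

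The 8 genes held 21 matches in all, of which 13 were 8-letter matches. *Lin28b*, *Trim71*, *Igf2bp1* and *Hmga2* held 4 each, *Lin28a* held 2, and *Igf2bp2*, *Igf2bp3* and *Hmga1* held 1. All 4 matches of *Trim71* were 8-letter matches, in a 3′ UTR of 5512 bases. *Hmga2* had the densest matches, at 1.33 per kb. Among 14491 tested coding genes with an annotated 3′ UTR 10.5% held a match, 3.70% an 8-letter match and 0.0759% at least 4 matches. Long 3′ UTRs hold more matches by length alone, and among genes with a 3′ UTR of 0.8 to 1.25 times the length of that of *Igf2bp1* 34.2% held at least 1 and 0.398% at least 4. For *Hmga2* the corresponding shares were 17.4% and 0.155%. The 8 timing genes are among the 14491 genes, so these are not shares of other genes alone. *Igf2bp1* and *Trim71*, with 4 matches each, both fall in the length range given for *Igf2bp1*, and *Hmga2* falls in its own. The genes were taken as let-7 targets, so that they hold matches is how they were known and is not an independent result. A match is a run of letters and not a measured site.

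**Figure D1:**
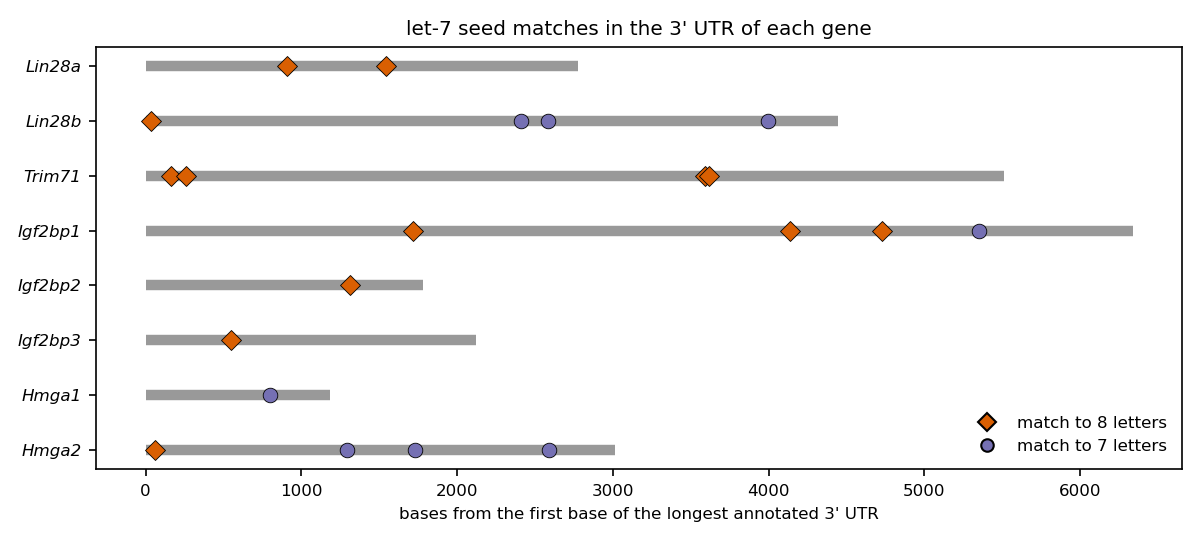
Position of let-7 seed matches in the longest annotated 3′ UTR of each of the 8 genes, in bases from the first base of the UTR. Grey bars are drawn to the length of the UTR, diamonds are 8-letter matches and circles 7-letter matches; *Lin28b*, *Trim71*, *Igf2bp1* and *Hmga2* hold 4 matches each and *Hmga1* a single 7-letter match.

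Total counts per library were 4939268 to 18351483 in NPC, 3407066 to 6315574 in NPC(+), 29046205 to 43095688 in the NSC libraries and 16707006 to 34594885 in the NR libraries, so genes at 1 CPM (counts scaled to library size) rest on few reads in NPC and NPC(+). *Sox1* RNA, the targeted gene, was at 5.42 ± 0.583 CPM in NPC and 20.9 ± 0.710 in NPC(+), against 55.1 ± 8.67 in the NSC libraries and 14.6 ± 8.66 in the NR libraries (SD, n = 3). NPC(+) exceeded NPC by a log2 fold change of 1.97 (adjusted p = 0.00221). NPC(+) cells were sorted for GFP carried by a *Sox1* allele, so this difference follows from how they were selected. The NR libraries were sorted for *Sox1* GFP but held less *Sox1* RNA than the unsorted NSC libraries. All 10 neuroepithelial markers were lower in NR than in NSC, where 25.8% of all genes tested were. All 10 pluripotency markers were higher in NR than in NSC, where 29.5% of all genes were. Their summed level was 1760 to 3378 CPM per NR library against 71.3 to 198 per NSC library, 36.6 to 46.3 in NPC and 15.9 to 19.1 in NPC(+). Most of the NPC sum was *Klf4*, at 33.5 ± 5.49 CPM in NPC and 5.79 ± 0.781 in NPC(+). *Pou5f1*, a defining ESC gene, was at 101 ± 29.6 CPM in NR and 8.34 ± 3.90 in NSC. NSC and NR are therefore used as the names of libraries. In NPC and NPC(+) the oligodendrocyte lineage genes *Olig1* and *Olig2* were abundant, as was *Slc1a3*, which encodes an astroglial glutamate transporter. The oligodendrocyte lineage genes *Sox10* and *Cspg4* had 3 counts or fewer in every NPC and NPC(+) library. In bulk libraries such as these, fewer cells of a type and less RNA per cell cannot be told apart.

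All 8 timing genes were higher in the NSC libraries than in NPC, and all 8 were higher in the NR libraries than in NPC, by the test on counts at an adjusted p under 0.1. Of all 17003 genes tested 42.7% were higher in NSC and 44.2% in NR. The median log2 fold change over the 8 genes was 4.51 in NSC and 4.33 in NR, against 0.20 and 0.19 over all genes tested. With a fold change over 4 required as well, 6 of the 8 passed in NSC, where 19.1% of all genes did, and 6 passed in NR, where 22.0% did. The 6 were in both cases *Lin28a*, *Lin28b*, *Trim71*, *Igf2bp1*, *Igf2bp2* and *Hmga1*. *Igf2bp3* and *Hmga2* were at a lower fold. *Lin28a* and *Lin28b* passed the filter on low counts only through NSC and NR. Their calls against NPC and NPC(+) therefore follow from being tested. All 8 genes had every NSC library above every NPC library, as 43.8% of all genes did, and 7 had every NR library above every NPC library, as 44.4% did, the exception being *Hmga2*.

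Between NPC(+) and NPC only a small part of this range was crossed. *Igf2bp2*, *Hmga1* and *Trim71* were higher in NPC(+), which is 3 of the 8 genes where 21.6% of all genes tested were higher, and 0 of the 8 were lower by edgeR's quasi-likelihood test, where 22.7% of all genes were. At an unadjusted p under 0.05, and by DESeq2, the number lower was also 0. None of the 8 passed with a fold change over 4, where 3.87% of all genes did in the upward and 1.92% in the downward direction. All NPC(+) libraries lay above all NPC libraries for 5 of the 8 genes, as for 25.7% of all genes, and below them for *Lin28a* alone, as for 27.1%. The median over the 8 genes was 0.37 against 0 over all genes. Against the NSC libraries all 8 were lower in NPC(+), where 39.9% of all genes were lower, and against the NR libraries 7 were lower, where 42.9% were. These comparisons share libraries, so they are not independent.

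**Figure D2:**
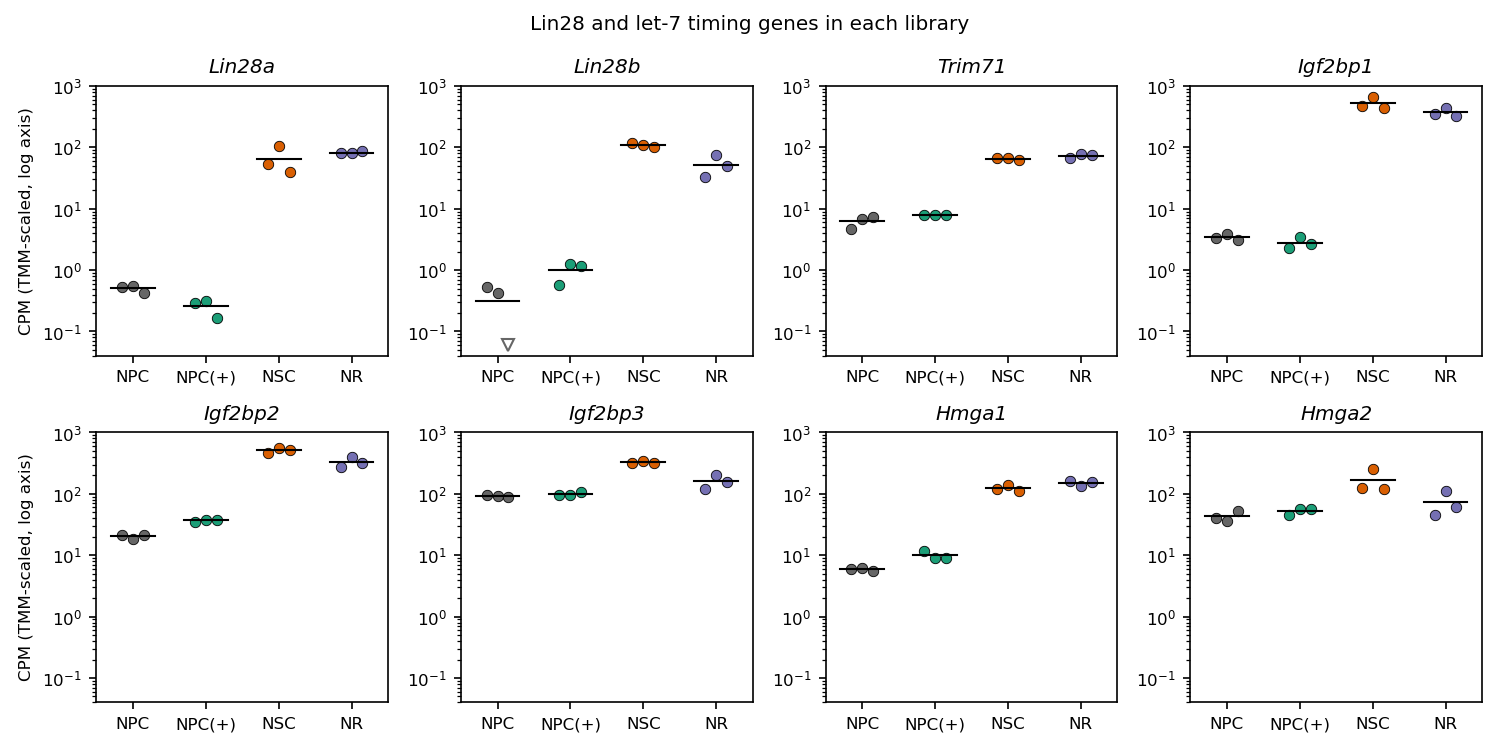
Level of each of the 8 genes in each library, in TMM-scaled CPM on a log axis. Circles are libraries, black lines group means of 3 and the open triangle a library with 0 counts, drawn at the foot of the axis; NSC and NR libraries lie above all NPC and NPC(+) libraries for every gene except *Hmga2*, where the NR library at 45.1 CPM lies among them.

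Per kb of exon the order of the genes differed between groups. In NPC *Igf2bp3* was the most abundant of the 8 at 11.2 ± 0.271 CPM per kb (SD, n = 3), followed by *Hmga2* at 6.34 ± 1.29. *Lin28b* was the least abundant at 0.0351 ± 0.0311. The NSC libraries were led by *Igf2bp2* at 69.2 ± 5.83 CPM per kb, *Hmga1* at 57.9 ± 7.33 and *Igf2bp1* at 53.8 ± 11.8, and *Trim71* was the lowest at 6.96 ± 0.344. The genes that kept the highest level in NPC, *Igf2bp3* and *Hmga2*, were thus the ones that differed least between NPC and NSC.

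The Lin28 proteins hold let-7 back. *Lin28a* (ENSMUSG00000050966, chr4:134003330-134018841, minus strand) had 9, 4 and 2 counts in the NPC libraries and 1, 2 and 1 in NPC(+). It had 2353, 3017 and 1324 counts in NSC and 1297, 2487 and 3063 in NR. In CPM the NSC libraries stood at 52.6, 104 and 40.4 and the NR libraries at 79.9, 80.2 and 86.1. *Lin28a* was therefore near the detection limit in all 6 progenitor libraries and well above it in the other 6, with no overlap. NSC exceeded NPC by 6.96 log2 units (SE 0.43, adjusted p = 5.26e-09) and NR exceeded NPC by 7.28 (SE 0.43, adjusted p = 3.11e-09). *Lin28a* passed the filter on low counts only through NSC and NR, so these differences follow from being tested. The ratio of pooled counts of NSC to NPC was 120, with an exact 95% interval of 72.9 to 215 that covers counting error only. All NPC(+) libraries had 3 counts or fewer and lay below the NPC libraries in CPM. NPC(+) to NPC gave 4 counts against 15, a ratio of 0.484 with an interval of 0.117 to 1.52, which does not exclude equal levels.

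*Lin28b* (ENSMUSG00000063804, chr10:45376620-45486395, minus strand) had 9, 3 and 0 counts in NPC and 2, 8 and 7 in NPC(+), or 0.537, 0.419 and 0 CPM against 0.579, 1.26 and 1.17 CPM. The 3 NPC(+) libraries were above the 3 NPC libraries, the lowest by a narrow margin. A higher level in NPC(+) did not pass the test, with a log2 fold change of 1.36 (SE 0.80, adjusted p = 0.208). Pooled counts gave a ratio of 2.57 with an interval of 1.16 to 5.90. DESeq2's Wald test called the difference (1.43, adjusted p = 0.0566), as did the test without a filter on low counts (1.35, adjusted p = 0.0614) and the fits without NR replicate 1 or NR replicate 2. In the NSC libraries *Lin28b* reached 116, 111 and 103 CPM and in NR 32.6, 74.5 and 49.1. Its difference between NSC and NPC was the largest of the 8 genes, at a log2 fold change of 8.04 (SE 0.41, adjusted p = 8.59e-10), and NPC(+) against NSC gave -6.68 (SE 0.38). Like *Lin28a*, *Lin28b* passed the filter on low counts only through NSC and NR, so these differences follow from being tested.

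The Lin28 genes did not move together between NSC and NR. *Lin28b* was lower in NR by 1.08 on the log2 scale (SE 0.23, adjusted p = 0.00142), and the groups did not overlap. *Lin28a* gave a log2 fold change of 0.32 in NR against NSC (SE 0.24, adjusted p = 0.287) with overlapping groups. Same-numbered NSC and NR libraries varied together, and a fit with a replicate block gave 0.44 for *Lin28a*, which passed (adjusted p = 0.0662). NSC replicate 2, at 104 CPM, decided this value, and without it the log2 fold change was 0.80 (adjusted p = 0.000118). *Lin28a* is also an ESC gene, and the 10 pluripotency markers moved in the same direction between NSC and NR, by a median of 4.04; their part in the *Lin28a* level was not tested.

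Trim71 is an RNA-binding ubiquitin ligase of the early embryo and a classical let-7 target. *Trim71* (ENSMUSG00000079259, chr9:114507133-114564369, minus strand) stood at 4.71, 6.70 and 7.30 CPM in NPC and at 7.82, 8.01 and 7.84 CPM in NPC(+). The NPC(+) libraries were nearly equal and lay above all NPC libraries, of which replicate 1 was the lowest. The log2 fold change of 0.41 passed (SE 0.17, adjusted p = 0.0760). It did not pass without NPC replicate 1, where the value was 0.21 (adjusted p = 0.460), nor without any single NPC(+) library, where values of 0.39 to 0.43 had adjusted p of 0.109 to 0.181, nor without a filter on low counts (0.41, adjusted p = 0.164). In NSC *Trim71* was at 66.6, 67.1 and 61.3 CPM and in NR at 66.9, 78.2 and 76.0, which overlapped. NSC exceeded NPC by 3.45 log2 units (SE 0.14) and NR by 3.63 (SE 0.14), and NR against NSC gave 0.18 (SE 0.11, adjusted p = 0.203).

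The 3 Igf2bp genes encode RNA-binding proteins that stabilize their target RNAs. All 3 were higher in NSC and NR than in NPC, from different levels in NPC. *Igf2bp1* (ENSMUSG00000013415, chr11:95957163-96005940, minus strand) was at 3.34, 3.91 and 3.13 CPM in NPC and at 2.32, 3.45 and 2.67 in NPC(+), with overlapping groups and a log2 fold change of -0.26 (SE 0.32, adjusted p = 0.581). In NSC it was at 477, 650 and 436 CPM and in NR at 350, 439 and 329, far above every progenitor library. NSC exceeded NPC by a log2 fold change of 7.23 (SE 0.21, adjusted p = 6.19e-12), a 150-fold difference, and NR by 6.75 (SE 0.21). NPC(+) against NSC gave -7.49 (SE 0.22).

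*Igf2bp2* (ENSMUSG00000033581, chr16:22059009-22163299, minus strand) had the clearest difference between NPC(+) and NPC. Its levels were 21.1, 18.7 and 21.5 CPM in NPC and 35.3, 37.8 and 37.9 CPM in NPC(+). No libraries overlapped, and the spread within each group was small beside the gap. The log2 fold change was 0.86 (SE 0.14, adjusted p = 0.000255), a 1.82-fold difference, which passed in all 21 alternatives with values between 0.78 and 0.93. Genes on chromosome 16 had a median shift of -0.37 in NPC(+) relative to NPC, and those within 5 Mb of *Igf2bp2* a median shift of -0.31, so the gene moved against its neighbourhood. In NSC *Igf2bp2* reached 468, 554 and 515 CPM and in NR 273, 393 and 313. NSC exceeded NPC by 4.65 log2 units (SE 0.14), and NR lay below NSC by 0.65 (SE 0.11, adjusted p = 0.000401).

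*Igf2bp3* (ENSMUSG00000029814, chr6:49085223-49214957, minus strand) was the family member with the highest level in NPC. It stood at 94.2, 91.1 and 90.0 CPM in NPC and at 97.6, 94.8 and 108 CPM in NPC(+), a log2 fold change of 0.12 (SE 0.15, adjusted p = 0.558) whose 95% interval ran from -0.16 to 0.41. The NPC(+) libraries were all above the NPC libraries by a narrow margin, and the difference passed in the fit of only these 2 groups (0.17). In NSC it was at 322, 349 and 320 CPM and in NR at 122, 206 and 157, with no overlap between any of NPC, NR and NSC. NSC exceeded NPC by 1.85 log2 units (SE 0.14, adjusted p = 5.93e-08) and NR by 0.82 (SE 0.14, adjusted p = 0.000126). *Malsu1* overlaps it on the opposite strand with 5169 counts against 53189 for *Igf2bp3*, and since the strand setting of the counting is not given in the sources used here, reads of the pair cannot be told apart where they overlap.

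**Figure D3:**
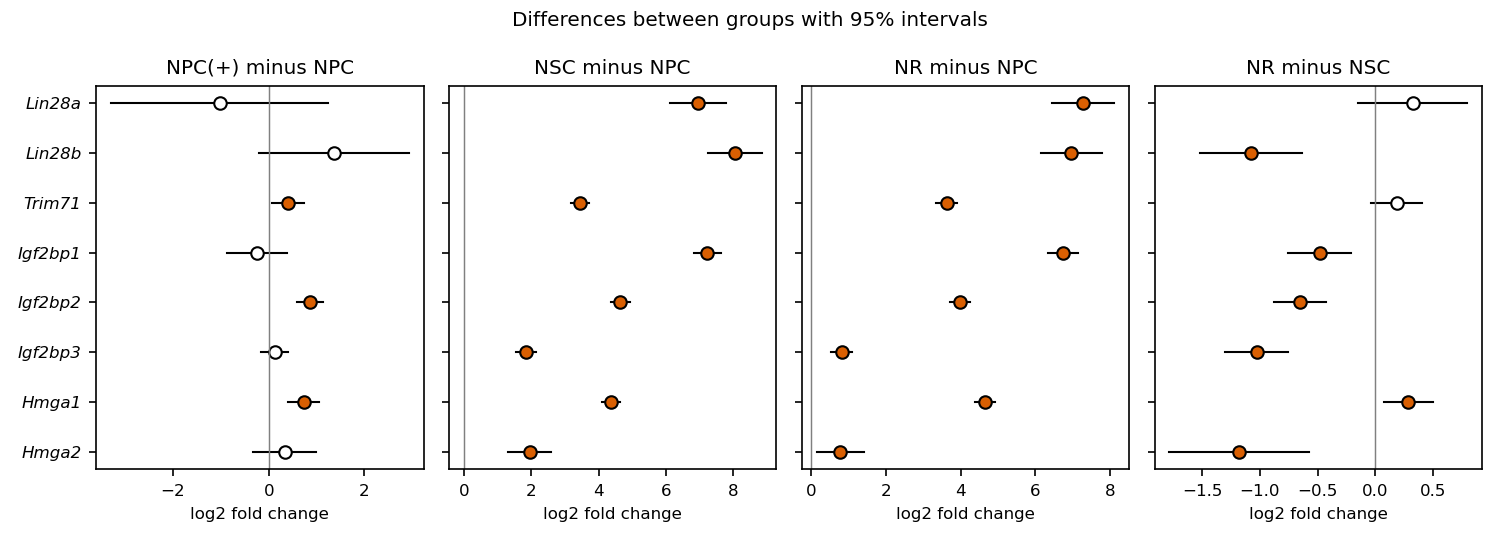
Log2 fold changes of the 8 timing genes in 4 comparisons, with 95% intervals; the axes differ in range. Filled circles passed the test at an adjusted p under 0.1 and open circles did not; NPC(+) differed from NPC by at most 0.86 among genes that passed, while NSC differed from NPC by 1.85 to 8.04.

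The Hmga proteins are chromatin architecture factors of growing tissue, and Hmga2 is known for promoting self-renewal of young neural stem cells. *Hmga1* (ENSMUSG00000046711, chr17:27556497-27563674, plus strand) was at 5.97, 6.14 and 5.63 CPM in NPC and at 11.9, 9.11 and 9.17 CPM in NPC(+). The groups did not overlap, and the log2 fold change was 0.73 (SE 0.17, adjusted p = 0.00360), a 1.66-fold difference. The NSC libraries were at 119, 140 and 110 CPM and the NR libraries at 164, 132 and 153. NSC exceeded NPC by 4.37 log2 units (SE 0.14) and NR by 4.66 (SE 0.14). The difference of 0.29 between NR and NSC passed (adjusted p = 0.0397) but the groups overlapped, and it was lost without NR replicate 1, NR replicate 3, NSC replicate 1 or NSC replicate 3, with values of 0.19 to 0.26.

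The count of *Hmga1* is uncertain, because 1403 of its 2553 runs of 50 bases also occur in *Hmga1b*, a copy on another chromosome, and how reads that match both were counted is not given in the sources used here. *Hmga1b* stood at 6.85 ± 0.733 CPM in NPC and 13.3 ± 3.45 in NPC(+), and at 150 ± 27.6 in NSC with 172 ± 16.0 in NR (SD, n = 3). With the pair counted together NPC(+) exceeded NPC by 0.84 log2 units (adjusted p = 0.00125) and NSC exceeded NPC by 4.41, while NR against NSC gave 0.24 and did not pass (adjusted p = 0.132). The gene *AI413582*, on the opposite strand, had 2079 counts against 25530 for *Hmga1*.

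*Hmga2* (ENSMUSG00000056758, chr10:120361275-120476469, minus strand) was at 39.9, 36.1 and 52.8 CPM in NPC and at 44.9, 56.7 and 57.7 CPM in NPC(+). The groups overlapped and the log2 fold change of 0.33 did not pass (SE 0.34, adjusted p = 0.492), though it did in the fit of only these 2 groups (0.40, adjusted p = 0.00649) and without a filter on low counts (0.34, adjusted p = 0.0463). Genes within 5 Mb of *Hmga2* had a median shift of 0.26 in NPC(+) relative to NPC, and those on chromosome 10 a median shift of 0.21. Both lie in the direction of the *Hmga2* value, and their part in it was not tested. NSC libraries were at 125, 250 and 121 CPM, with replicate 2 again the highest, and NR libraries at 45.1, 111 and 62.1. NSC was above NPC by 3.89-fold (SE 0.33 on the log2 scale, adjusted p = 9.93e-05). NR exceeded NPC by 0.78 (adjusted p = 0.0407) with overlapping groups, and the call was lost without NPC replicate 1 (0.71), NPC replicate 2 (0.63) or NR replicate 2 (0.35). The NR and NPC(+) levels, the neighbours in order, had a difference of -0.45 that did not pass (adjusted p = 0.229), but did without NR replicate 1 (-0.67, adjusted p = 0.0662) and without a filter on low counts (-0.47, adjusted p = 0.000508).

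Between NR and NSC 5 of the 8 genes were lower in NR, where 25.8% of all genes tested were: *Hmga2* by 1.18 log2 units, *Lin28b* by 1.08, *Igf2bp3* by 1.03, *Igf2bp2* by 0.65 and *Igf2bp1* by 0.48. *Hmga1* alone was higher, where 29.5% of all genes were. With a fold over 4 required, 0 of the 8 passed in either direction, where 7.34% of all genes were higher and 0.118% lower. For *Lin28b*, *Igf2bp2*, *Igf2bp3* and *Hmga2* all NR libraries lay below all NSC libraries, as for 26.6% of all genes. The 8 genes had a median of -0.57 in this comparison against 0.01 over all genes tested. Beside these values stand the 10 neuroepithelial markers, lower in NR by a median of -1.38, and the 10 pluripotency markers, higher by a median of 4.04. Their part in the differences was not tested.

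let-7 itself was visible only through its precursors, since these libraries capture long RNA and not mature microRNAs. Of 12 let-7 and miR-98 hairpin genes in the count table, 9 had no more than 3 counts in any library. *Mirlet7b*, at chr15:85707319-85707403, had 18, 16 and 6 counts in NPC, 3, 3 and 0 in NPC(+), 1, 0 and 0 in NSC and 0 in every NR library. NPC was thus highest, and the NSC and NR libraries held 1 count in all. The ratio of pooled counts of NPC to NSC was 148, which rests on the 1 NSC count and has an exact interval of 25.1 to 6002. NR had no count, and NPC was 38.5-fold above it, counted against a floor of 3 counts over the group. The exact interval of the pooled count ratio of NPC to NR began lower, at 29.9. The ratio to NSC and the value against the floor are not comparable, so they give no order of NSC and NR. NPC(+) against NPC gave a ratio of 0.272 (interval 0.0944 to 0.646) and a log2 fold change of -1.91 that passed (SE 0.74, adjusted p = 0.0628), with all NPC(+) libraries at 3 counts or fewer. The NPC libraries alone carried *Mirlet7b* past the filter on low counts, so a lower value in NPC(+) follows from being tested.

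*Mirlet7c-2*, at chr15:85706603-85706697 and on the same strand within 1 transcript with *Mirlet7b*, had 19, 4 and 3 counts in NPC, 3, 5 and 2 in NPC(+) and 0 in all NSC and NR libraries. Counted against a floor of 3 counts over the group, NPC was 32.1-fold above NSC and 25.0-fold above NR. The exact intervals of the pooled count ratios began lower, at 24.3 for NSC and 18.9 for NR. NPC(+) against NPC gave -0.41 (adjusted p = 0.633). *Mirlet7i* had 21 counts in NSC, 12 in NR, 4 in NPC and 2 in NPC(+) in all, which at these depths gave a ratio of NSC to NPC of 1.42 with an interval of 0.478 to 5.67. Both *Mirlet7b* and *Mirlet7c-2* passed the filter on low counts through the progenitor libraries alone, so their differences from NSC and NR follow from being tested. For *Mirlet7b* the NPC libraries sufficed, so the limit holds for its NPC(+) call as well. The transcript that contains them was not analysed here.

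Longer transcripts that contain let-7 hairpins on the same strand were better covered, and were chosen by their coordinates after the data had been seen. *3110039I08Rik*, which holds let-7a-2, was at 57.1, 48.4 and 51.5 CPM in NPC and at 25.5, 32.0 and 31.5 CPM in NPC(+). NSC libraries were at 13.4, 5.18 and 14.1 CPM and NR libraries at 15.1, 7.03 and 16.4. NPC libraries were the highest, NPC(+) libraries intermediate, and the groups did not overlap except for NSC and NR. NPC(+) was lower than NPC by 0.81 log2 units (SE 0.34, adjusted p = 0.0764), and NSC was lower by 2.26 (SE 0.34, adjusted p = 3.48e-05). *Mir99ahg*, which holds let-7c-1, had another order, with 19.4 ± 3.35 CPM in NPC and 9.89 ± 0.503 in NPC(+), against 32.5 ± 8.09 in NSC and 16.7 ± 6.63 in NR (SD, n = 3). NPC(+) was lower than NPC by 0.98 (adjusted p = 0.0170) and NSC higher by 0.74 (adjusted p = 0.0176). *6720427I07Rik*, which holds let-7a-1, let-7d and let-7f-1, was at 2.34 ± 0.269 CPM in NPC and 5.001 ± 0.104 in NSC, a log2 fold change of 1.07 (adjusted p = 0.00106), with -0.21 in NPC(+) (adjusted p = 0.621). *Huwe1*, a ubiquitin ligase gene that holds let-7f-2 and miR-98, was at 187 ± 8.91 CPM in NPC and 119 ± 5.99 in NPC(+) (SD, n = 3), lower in NPC(+) by 0.66 (SE 0.12, adjusted p = 0.000490), with -0.08 in NSC (adjusted p = 0.554). *Wdr82*, which holds let-7g, and *Spaca6*, which holds let-7e, did not pass in either comparison, with -0.10 and -0.54 in NPC(+) (adjusted p = 0.780 and 0.397) and -0.37 and 0.74 in NSC (adjusted p = 0.148 and 0.0964, the latter at an unadjusted p over 0.05). Of these 6 transcripts 3 were lower in NPC(+) than in NPC, where 22.7% of all genes tested were lower, and 3 did not pass. *Huwe1*, *Wdr82* and *Spaca6* are coding genes, so their counts include their own messenger RNA. In NSC against NPC 1 was lower and 2 were higher, where 32.5% and 42.7% of all genes were, and 3 did not pass. The NSC counts are near these shares. *Mir99ahg* lies on chromosome 16, like *Igf2bp2*, where the median shift in NPC(+) was -0.37.

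**Figure D4:**
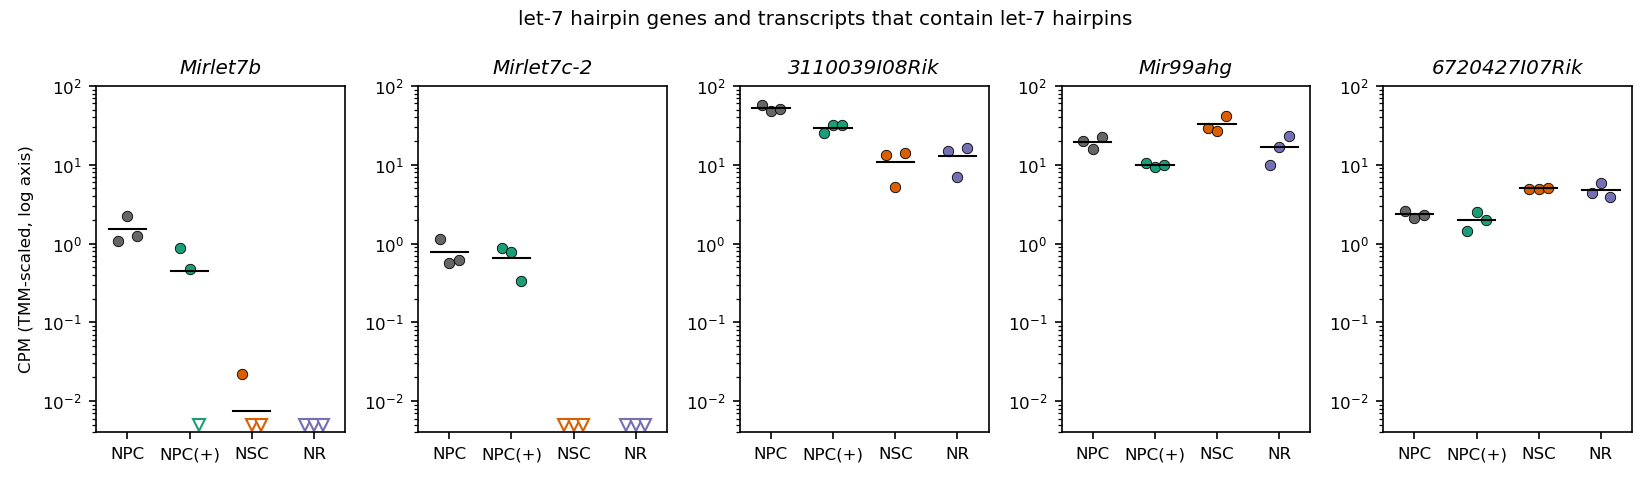
Level of 2 let-7 hairpin genes and 3 longer transcripts that contain let-7 hairpins in each library, in TMM-scaled CPM on a log axis. Circles are libraries, black lines group means of 3 and open triangles libraries with 0 counts, drawn at the foot of the axis; *Mirlet7b*, *Mirlet7c-2* and *3110039I08Rik* are highest on average in NPC, while *6720427I07Rik* is higher in NSC and NR.

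Of 16 genes that cut, export, tail or degrade let-7 precursors 4 were higher and 5 lower in NPC(+) than in NPC, where 21.6% of all genes tested were higher and 22.7% lower, with a median of -0.03. In NSC 9 were higher and 6 lower than in NPC, where 42.7% and 32.5% of all genes were, with a median of 0.38. The NPC(+) counts are near these shares. *Dis3l2*, the exonuclease that degrades let-7 precursors tailed after Lin28 binding, was higher in NPC(+) by 1.11 (SE 0.17, adjusted p = 0.000157) and in NSC by 1.89 (SE 0.16). *Drosha*, the nuclear enzyme that cuts the primary transcript, was higher in NPC(+) by 0.66 (SE 0.08) and in NSC by 0.64 (SE 0.08). *Tut4*, which adds the tail, was 0.49 log2 units lower in NPC(+) and 0.88 higher in NSC, both past the test. *Dicer1*, which cuts the hairpin, had a log2 fold change of 1.78 in NSC (adjusted p = 8.75e-09) and of 0.01 in NPC(+) (adjusted p = 0.987). *Khsrp*, a factor that promotes let-7 maturation, and *Xpo5*, the exporter of precursors, were lower in NPC(+) by 0.63 and 0.51. In NSC *Ddx17*, a helicase of the Drosha complex, was lower by 1.79.

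Of 20 further known let-7 targets 5 were higher and 4 lower in NPC(+) than in NPC, near the 21.6% and 22.7% of all genes tested, with a median of 0.04, and without NPC(+) replicate 2 the number higher was 3. In NSC 11 were higher and 8 lower, where 42.7% and 32.5% of all genes were, with a median of 1.19 against 0.20 over all genes. Between NR and NSC 13 were lower, where 25.8% of all genes were, and 1 was higher, or 2 without NSC replicate 2, where 29.5% were. The 2 Myc family genes differed in direction. *Mycn*, the Myc gene of early neural progenitors, was at 7.68 ± 0.444 CPM in NPC and 7.78 ± 1.75 in NPC(+). The NSC level was 291 ± 67.8 and the NR level 229 ± 15.1 (SD, n = 3), a log2 fold change of 5.25 in NSC. *Myc* was at 862 ± 90.9 CPM in NPC and 306 ± 11.03 in NPC(+), with 48.6 ± 11.4 in NSC and 73.7 ± 9.64 in NR. It fell by 1.49 on the log2 scale in NPC(+) (adjusted p = 3.23e-06) and was 4.15 below NPC in NSC. *Arid3b*, an ARID-family DNA-binding protein, was higher in NPC(+) at 5.22 ± 0.829 CPM against 2.61 ± 0.629 in NPC (1.096, adjusted p = 0.00413) and stood at 128 ± 18.4 in NSC. *Nr6a1*, a nuclear receptor of the early embryo, was higher in NSC by 3.94. The cyclin gene *Ccnd1* was higher in NPC(+) by 0.94 and lower in NSC by 0.68.

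Genes of late, gliogenic progenitors are the counterpart of the early genes. Of 14 on the list 4 were higher and 6 lower in NPC(+) than in NPC (median -0.51), where 21.6% and 22.7% of all genes tested were, with 2 higher without NPC(+) replicate 2 or replicate 3. Against NPC 4 were higher and 8 lower in NSC (median -1.04), where 42.7% and 32.5% of all genes were, and 3 were higher and 9 lower in NR, where 44.2% and 32.8% were. *Slc1a3* was at 2605 ± 156 CPM in NPC and 1182 ± 30.3 in NPC(+), but at 52.4 ± 2.66 in NSC and 42.3 ± 4.43 in NR (SD, n = 3). *Tnc*, a matrix protein of late radial glia, was at 913 ± 66.5, 212 ± 19.8, 68.1 ± 26.6 and 39.8 ± 8.07 CPM in the same order. Both were lower in NPC(+) than in NPC, by 1.14 (adjusted p = 3.70e-07) and 2.11 (adjusted p = 1.39e-05) on the log2 scale. *Nfia*, a transcription factor that opens the glial programme, went the other way in NPC(+), with 261 ± 2.81 CPM in NPC, 396 ± 27.0 in NPC(+) and 24.1 ± 8.71 in NSC; NPC(+) exceeded NPC by 0.60 (adjusted p = 0.0632). *Hopx*, a marker of outer radial glia and adult stem cells, was higher in NPC(+) by 1.92, and *Sox9*, a gliogenic transcription factor, was lower by 1.32. The astrocyte gene *Gfap* had a log2 fold change of -4.22 in NSC and of 0.40 in NPC(+) (adjusted p = 0.407), at 2.25 ± 0.791 CPM in NPC. The 4 genes higher in NSC than in NPC were *Nr2f1* (0.96), *Nr2f2* (1.32), *Aldh1l1* (1.68) and *Aqp4*, of which the last pair are astrocyte genes. *Aldh1l1* was at 0.660 ± 0.0359 CPM in NPC and 2.14 ± 0.758 in NSC (SD, n = 3), and *Aqp4* had at most 1 count in an NPC library and stood at 2.46 ± 0.553 CPM in NSC. *Aqp4* passed the filter on low counts only through NSC and NR, so its call against NPC follows from being tested.

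**Figure D5:**
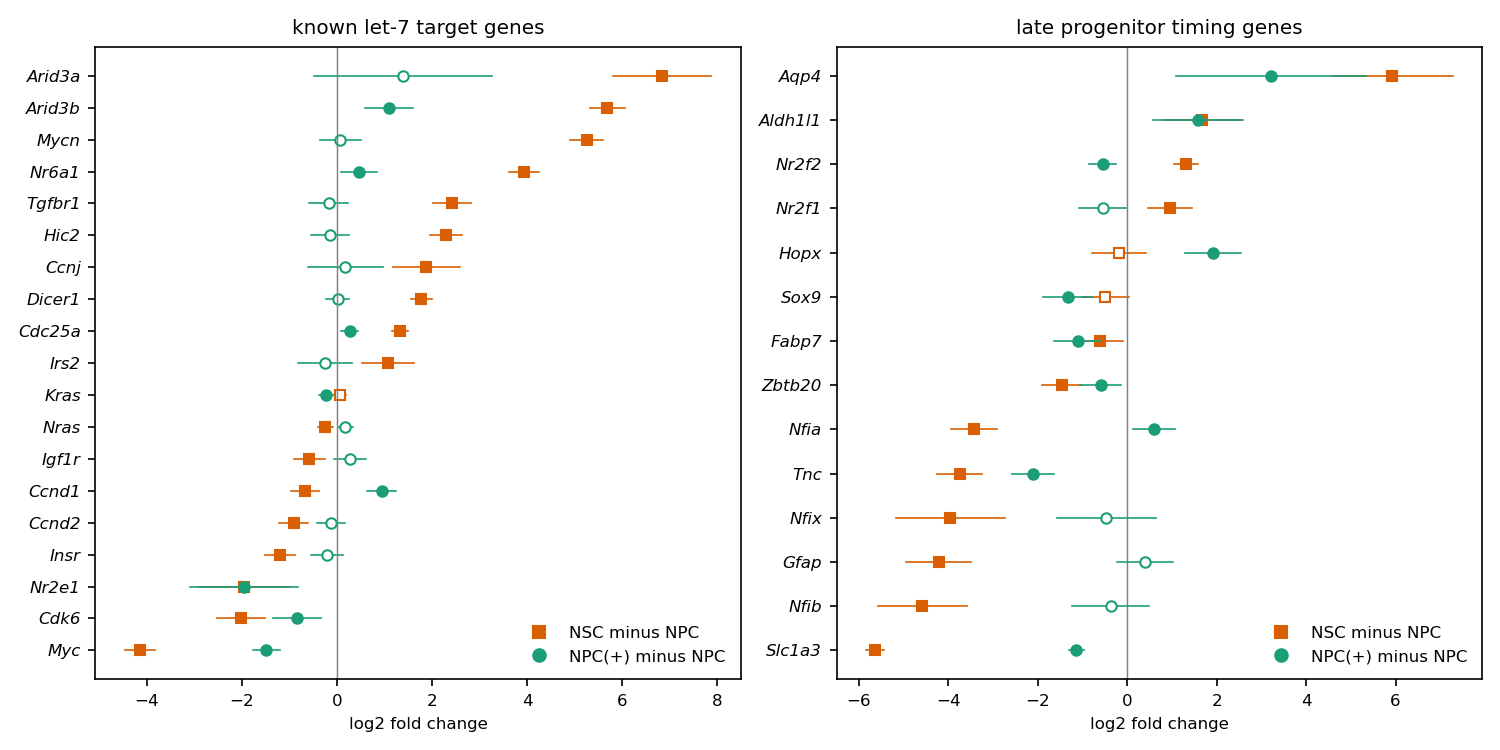
Log2 fold change with 95% intervals of 19 of the 20 known let-7 target genes and 14 late progenitor timing genes, in NSC against NPC (squares) and in NPC(+) against NPC (circles). Filled symbols passed the test at an adjusted p under 0.1; NPC(+) values lie closer to 0 than NSC values for most genes, and *Myc*, *Tnc* and *Slc1a3* are lower in both.

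Hmga2 is known to hold down the Ink4/Arf locus in young stem cells. The 6 cyclin-dependent kinase inhibitor genes gave 0 higher and 4 lower in NPC(+), where 21.6% and 22.7% of all genes tested were, with a median of -1.05. In NSC 1 was higher and 4 were lower than in NPC, where 42.7% and 32.5% of all genes were. The count of 0 is from edgeR's test, and it was also 0 at an unadjusted p under 0.05 and by DESeq2. *Cdkn2a*, which encodes Ink4a and Arf, was at 35.4 ± 4.43 CPM in NPC and 38.6 ± 4.89 in NPC(+) (0.12, adjusted p = 0.692), and at 2.57 ± 0.833 in NSC (SD, n = 3), 3.81 log2 units below NPC. *Cdkn2b*, the neighbouring Ink4b gene, was lower in NPC(+) by 0.42 and in NSC by 0.88, and *Cdkn2c* was lower in NSC by 3.28. The Cip/Kip genes were lower in NPC(+), *Cdkn1a* by 2.27, *Cdkn1b* by 1.67 and *Cdkn1c* by 4.97. *Cdkn1c* was at 27.6 ± 2.53 CPM in NPC, 0.834 ± 0.368 in NPC(+) and 120 ± 13.6 in NSC, so NPC(+) lay farther from NSC than NPC did.

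Over the other tested coding genes the number of let-7 seed matches in the 3′ UTR went with small shifts, which differed between comparisons. The median log2 fold change of NSC against NPC was 0.23 for 12964 genes with no match, 0.40 for 1337 genes with 1, 0.61 for 159 with 2 and 0.58 for 23 with 3 or more. For NR against NPC the medians were 0.23, 0.31, 0.46 and 0.21, so the class with 3 or more did not exceed the class with no match. For NR against NSC they were 0.03, -0.10, -0.18 and -0.45, and for NPC(+) against NPC 0, 0.01, 0.08 and 0.04. The median 3′ UTR length rose over the same classes from 1059 to 2173, 3521 and 4466 bases, and the part of length in these medians was not tested. The 8 timing genes were left out of these medians.

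Over the 12 libraries, which fall into groups, the log2 CPM of other genes followed that of the timing genes closely. The 3 coding genes most like *Igf2bp1* were *Mycn* (Pearson r = 0.999), *Mdk*, a growth factor of embryonic neural tissue, and *Gm8281* (both 0.998). *Lin28b* was most like *Neurod4*, a proneural transcription factor (0.995), *Zdbf2* (0.994) and *Ccdc61* (0.992). For *Lin28a* they were *Sntb2* (0.997), *Ppp1r14a* and *Cdc34*, for *Trim71* *Ptgr2* (0.996), *Btbd2* and *Dkk3*, for *Igf2bp2* *Ccng1* (0.997), *Scube1* and *Ltbp1*, and for *Igf2bp3* *Elmod1* (0.992), *Smarce1* and *Ccp110*. *Hmga1* was most like its copy *Hmga1b* (0.998), then *Dkk3* and *Hmgb2*. *Hmga2* had the least close partners, with *Pclaf* (0.961), *St5* and *Insl6* (0.959). Among the 8 genes themselves r ran from 0.668 for *Hmga1* with *Hmga2* to 0.993 for *Lin28a* with *Igf2bp1*, and *Hmga2* was most like *Igf2bp3* (0.928). The libraries share depth and group, so these values describe the pattern only.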

How the data were processed

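RNA of 12 libraries was amplified with SMART-Seq v4. The authors deposited raw, whole-number counts per Ensembl gene without normalization; their processing notes name STAR 2.6, RSEM 1.1.14 and mm10, while annotation, strand setting and filters are not given in the sources used here. Symbols, coordinates, lengths and 3′ UTRs came from GENCODE M21 (GRCm38), which named 45143 of 45706 genes.

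Counts were scaled by TMM, filtered with filterByExpr and fitted with glmQLFit and glmQLFTest in edgeR 4.0.16 (R 4.3.3, limma 3.58.1) over all 12 libraries without a block, with a prior count of 0.125. P values were adjusted by the Benjamini-Hochberg method over 17003 genes. A gene passed at an adjusted p under 0.1 and p under 0.05. All 8 genes passed the filter, though *Lin28a* and *Lin28b* did so through NSC and NR, and only 6 of the 8 were kept in a fit of NPC and NPC(+) alone. Adjusted p values in the text come from this test unless another is named. SEs are the log2 fold change over the square root of F. CPM are TMM-scaled, and a group with 3 counts or fewer in every library was treated as at the floor. Count ratios carry exact conditional binomial 95% intervals. Exact permutation of 3 against 3 libraries cannot go below p = 0.1. Tables were made with pandas 2.3.3 and scipy 1.17.1 in Python 3.11.15, and figures with matplotlib 3.10.9. The script for the count test was checked on simulated data, which bears on the script and not on any call.

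Genes, lists and tests were chosen with earlier results of these data known. Named genes were the 8 members, the 4 genes of each list with the smallest adjusted p in NPC(+) and in NSC against NPC, the 3 coding genes most correlated with each member, *Sox1* and close copies. For 1 gene of the let-7 target list, kept in that list's counts, values are not reported here. *Pou5f1*, *Klf4*, *Olig1*, *Olig2*, *Sox10*, *Cspg4*, *Mirlet7i*, the late progenitor genes higher in NSC and the longer let-7 transcripts were named after their values were seen. Replicate numbers are shared by the groups. Deviations from group means correlated in same-numbered NSC and NR libraries (0.229, 0.490 and 0.296), so the numbers pair these 2 groups as a property of the data; no label names a shared batch, and no other comparison exceeded 0.0619. Alternatives were DESeq2 1.42.0, its size factors, upper-quartile scaling, other filters, thresholds and prior counts, the block, fits of 2 groups, thinning to the smallest library and leaving out each library. Counting *Hmga1* and *Hmga1b* together was added after seeing the data.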

Additional observations from a re-analysis of the deposited data

How the results depend on the processing

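Of 994 values of the 8 genes under the alternatives 968 kept their direction and side of the threshold, 15 no longer passed, 11 newly passed and 0 changed direction. Genes higher in NPC(+) than in NPC numbered 3, and 5 in the fit of only these groups, where 6 of the 8 could be tested. The share of all genes called higher in that fit is not given here, so whether the 5 exceed it cannot be told. With at least 10 counts in every library only 5 of the 8 genes could be tested, so that counts of 8 became 5 for NSC and for NR against NPC and for NPC(+) against NSC, 7 became 4 for NPC(+) against NR, and 5 became 3 for genes lower in NR than in NSC. A required fold over 4 left 0 of 3 in NPC(+), and 0 of 1 higher and 0 of 5 lower in NR against NSC. The 1 gene higher in NR than in NSC, *Hmga1*, became 0 in the fit of 2 groups and without a filter on low counts, 2 with the replicate block, and 0 to 2 when single libraries were left out. The replicate block otherwise changed no call among the 8 genes and moved no count over all genes by more than 1.04 times; outside NSC and NR the libraries share only a number. Depth limits *Lin28a*, *Lin28b* and the let-7 hairpins in NPC and NPC(+), where a library of 3407066 counts places 3 counts at 0.869 CPM. Limits of replicates and of the annotation apply throughout. The p values rest on the spread between 3 cultures per group. In the main fit that spread is taken over all 4 groups and not only over the groups compared.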
